A study of Mus musculus with 4 samples.

Results

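The mitochondrial ribosomal protein genes are the protein-coding genes of the GENCODE M1 annotation of the mouse genome (mm9) whose symbol is Mrpl or Mrps followed by a digit, and 77 of 22367 nuclear protein-coding genes met this rule. SHP peaks were assigned to them when the peak interval lay within 5 kb of the gene body. By this rule 13 of 1508 peaks of vehicle-treated mice and 27 of 3155 peaks of FGF19-treated mice belonged to the set. The 77 genes comprise 47 Mrpl and 30 Mrps symbols. By where the protein sits, 49 encode proteins of the large subunit and 26 of the small subunit, and the other 2, Mrps36 and Mrps36-ps1, are not placed in the ribosome here.

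SHP binding in the liver was profiled by chromatin immunoprecipitation and sequencing (ChIP-seq) to compare hepatic chromatin after vehicle and after FGF19, a gut hormone released after feeding. All mice were wild-type male C57BL/6 animals, 8 to 12 weeks old, fasted for 12 h. They received vehicle or 1 mg/kg FGF19 through the tail vein, and livers were taken 2 h later. Immunoprecipitated and input DNA from 3 mice was pooled per treatment before sequencing, which gave 1 SHP library and 1 input library each. No error between animals can therefore be given, and no difference between the groups was tested.

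SHP is a nuclear receptor that cannot hold DNA by itself and sits on promoters through other proteins, where it acts as a corepressor. The mitochondrial ribosome translates the few proteins encoded by mitochondrial DNA, which are subunits of the respiratory chain and of ATP synthase. All of its proteins are encoded in the nucleus, made in the cytosol and imported, and their genes are typical housekeeping genes with CpG-rich promoters. Some of the proteins have counterparts in bacterial ribosomes and others were added during the evolution of mitochondria.

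After removal of duplicates the peak caller used 15473647 SHP tags with vehicle and 13444078 with FGF19, extended to 240 and 260 bp. Pileup is the number of extended tags over the summit, the highest point of a peak, and fold enrichment is the ratio of the pileup to the local input background, with 1 added to each. The median over the whole list was a fold enrichment of 4.14 with vehicle and 4.05 with FGF19, and a pileup of 24 in both. The 95% intervals beside percentages are Wilson intervals and reflect counting error alone.

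The promoters that carried the peaks are shown first, as examples of each pattern of binding. For genes bound in both groups, the stretch of the peak outside untranslated regions is given in mm9 in the direction of the gene, with exact matches to SP1 (CCCCGCCCC or GGGGCGGGG) and NF-Y (ATTGGC or GCCAAT) in capitals. The stretches of Mrpl51 (chr6:125141614-125141818, plus strand) and Mrps5 (chr2:127412893-127412957, plus strand) lie just upstream of the annotated gene start.
Mrpl51: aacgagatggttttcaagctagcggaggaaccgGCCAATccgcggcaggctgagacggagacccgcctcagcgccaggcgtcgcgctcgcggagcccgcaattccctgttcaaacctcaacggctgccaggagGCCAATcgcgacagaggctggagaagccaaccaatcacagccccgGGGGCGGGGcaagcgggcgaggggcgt
Mrps5: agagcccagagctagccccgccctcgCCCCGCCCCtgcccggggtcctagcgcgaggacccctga
Mrpl51 carries a pair of NF-Y matches and 1 SP1 match in this window, and Mrps5 carries 1 SP1 match.

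Peaks found only after FGF19 are represented by Mrpl17 (chr7:112959614-112959806, minus strand), Mrps23 (chr11:88017703-88017889, plus strand) and the stretch just upstream of Mrps11, which lies in an intron of the longer annotation of Mrpl46 (chr7:85927953-85928004, minus strand), and peaks found only with vehicle by Mrpl11 (chr19:4962118-4962314, plus strand) and Mrps24 (chr11:5607694-5607833, minus strand).
Mrpl17: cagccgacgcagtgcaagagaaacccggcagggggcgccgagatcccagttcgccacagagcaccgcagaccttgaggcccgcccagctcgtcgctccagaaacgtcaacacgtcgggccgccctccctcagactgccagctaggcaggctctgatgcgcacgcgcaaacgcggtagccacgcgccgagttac
Mrps23: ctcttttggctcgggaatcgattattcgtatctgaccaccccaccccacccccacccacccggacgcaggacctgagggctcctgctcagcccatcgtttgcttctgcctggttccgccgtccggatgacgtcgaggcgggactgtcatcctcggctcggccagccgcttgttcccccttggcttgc
Mrpl46 and Mrps11: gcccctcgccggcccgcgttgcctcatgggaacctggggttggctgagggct
Mrpl11: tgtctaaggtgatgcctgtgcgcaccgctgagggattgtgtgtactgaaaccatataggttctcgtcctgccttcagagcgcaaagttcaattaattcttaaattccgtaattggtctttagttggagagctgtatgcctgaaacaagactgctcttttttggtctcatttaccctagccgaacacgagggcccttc
Mrps24: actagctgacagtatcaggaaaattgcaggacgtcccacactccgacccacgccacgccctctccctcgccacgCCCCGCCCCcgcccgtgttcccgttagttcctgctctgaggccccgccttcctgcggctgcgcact
Of these 5 stretches only that of Mrps24 holds a capitalised match, to SP1. The stretches of Mrpl51, Mrpl17, Mrpl11 and of Mrpl46 and Mrps11 include a summit, and those of Mrps5, Mrps23 and Mrps24 end before it, where the untranslated or non-coding exon begins.

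With vehicle, 13 of the 77 genes had a peak within 5 kb (16.9%, interval 10.1 to 26.8), against 7.93% of all protein-coding genes. After FGF19 the number was 26 (33.8%, interval 24.2 to 44.9), against 16.3% of all genes. Each share was about 2 times its background, and the FGF19 list is itself the longer one. Shortened to its best q-values at the length of the vehicle list, the FGF19 list gave 14 genes (18.2%, background 8.02%), close to the 13 with vehicle. In the union of the lists 32 of the 77 genes (41.6%) had a peak, against a background of 19.9%, and 45 had none in either list. There were 7 genes with peaks in both lists (9.09%, background 4.31%), which is a share of 7 of 13 vehicle genes and 7 of 26 FGF19 genes. Peaks only with vehicle were found at 6 genes (background 3.62%) and peaks only after FGF19 at 19 genes (background 12.0%).

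**Figure D1:**
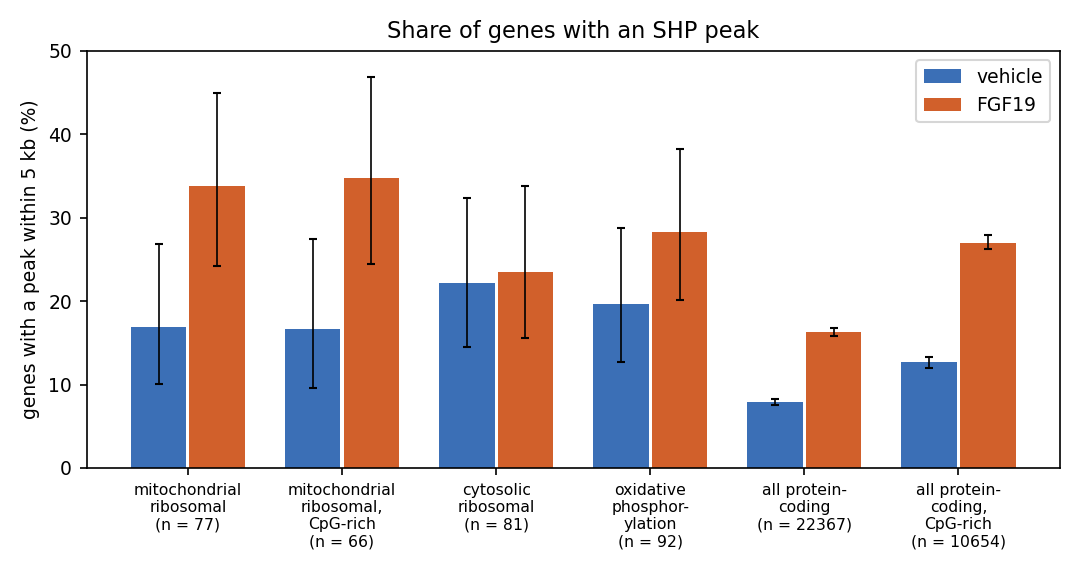
Percentage of genes with an SHP peak within 5 kb of the gene body in the vehicle list (blue) and the FGF19 list (orange), with the number of genes under each set; bars are percentages and error bars are 95% Wilson intervals for counting error. The mitochondrial ribosomal protein genes reach 33.8% after FGF19 against 16.3% of all protein-coding genes, and the gap is smaller against genes with CpG-rich promoters (27.0%).

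The type of promoter moved with these shares. For each gene the start was taken here as its most upstream annotated end. A promoter was called CpG-rich when the 250 bp on either side of the gene start had at least 50% GC and a ratio of observed to expected CpG of at least 0.6. This held for 66 of the 77 genes (85.7%) and for 47.6% of all genes. Mrps24 and Mrpl46, whose peaks lay at another of their starts, did not meet it at this one. Among CpG-rich genes only, 16.7% of the mitochondrial ribosomal protein genes had a vehicle peak (interval 9.57 to 27.4) against 12.7% of all such genes, and 34.8% had an FGF19 peak (interval 24.5 to 46.9) against 27.0%. Both intervals for the set include the value of all CpG-rich genes. This comparison was added after the data had been seen.

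Genes of cytosolic ribosomal proteins and of oxidative phosphorylation subunits were counted in the same way, for comparison. Of 81 genes with the symbols of cytosolic ribosomal proteins, 18 had a vehicle peak (22.2%) and 19 an FGF19 peak (23.5%), and 1 gene was in both. Of 92 genes with the symbols of oxidative phosphorylation subunits, 18 had a vehicle peak (19.6%), 26 an FGF19 peak (28.3%) and 10 both. The share in both lists was 1.23% for the cytosolic ribosomal genes and 10.9% for the oxidative phosphorylation genes. All protein-coding genes had shares of 7.93% with vehicle, 16.3% after FGF19 and 4.31% in both. The intervals of the 3 sets overlapped in each list.

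By the place of the protein in the ribosome, 8 of 49 large subunit genes (16.3%) and 5 of 26 small subunit genes (19.2%) had a vehicle peak. After FGF19 the counts were 17 of 49 (34.7%) and 9 of 26 (34.6%). Beside these, the shares of all protein-coding genes were 7.93% with vehicle and 16.3% after FGF19. Counting only summits within 1 kb of the gene's own start, the large and small subunits gave 5 of 49 and 5 of 26 (19.2%) with vehicle, 11 of 49 (22.4%) and 9 of 26 (34.6%) after FGF19, and 28.6% and 46.2% in either list. The backgrounds by this narrower rule were 5.53% with vehicle, 12.5% after FGF19 and 15.4% in either list. The shares of the subunits were close under the wider rule and higher for the small subunit under the narrower one, with overlapping intervals. Of 45 proteins with a bacterial counterpart, 10 genes had a vehicle peak (22.2%, interval 12.5 to 36.3) and 15 an FGF19 peak (33.3%, interval 21.4 to 47.9). Of 27 proteins found only in mitochondria, 3 had a vehicle peak (11.1%, interval 3.85 to 28.1) and 9 an FGF19 peak (33.3%, interval 18.6 to 52.2). The intervals of these 2 classes overlapped in both lists. The remaining 5 genes, whose class was not assigned, had no vehicle peak and 2 FGF19 peaks, at Mrpl55 and Mrps18b.

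Among the 7 genes with peaks in both lists, the highest fold enrichments were at Mrps5, a small subunit protein with a bacterial counterpart. Its peak (chr2:127412893-127413192 with vehicle, chr2:127412909-127413262 after FGF19) had a pileup of 33 and a fold enrichment of 6.06 with vehicle, and 34 and 6.68 after FGF19. In both lists the summit lay in an untranslated region, 84 bp upstream of the nearest start with vehicle and 63 bp after FGF19. Mrpl47, a large subunit protein that shares its promoter with Ndufb5 of respiratory complex I (vehicle peak chr3:32635649-32636166, FGF19 peak chr3:32635603-32636156), had a pileup of 37 with vehicle and 44 after FGF19 and a fold enrichment of 4.93 and 5.65. These summits were closer to the Ndufb5 start, at 132 and 8 bp, than to that of Mrpl47, at 289 and 165 bp. The FGF19 pileup at Mrpl47 was the highest of the 27 FGF19 peaks of the set.

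Mrps7, a protein of the head of the small subunit (vehicle peak chr11:115465134-115465491, FGF19 peak chr11:115465016-115465575), had a pileup of 35 in both lists and a fold enrichment of 3.74 with vehicle and 5.01 after FGF19. A second FGF19 peak was assigned to Mrps7, with a pileup of 30 and a fold enrichment of 4.31, but its summit was 8 bp from the start of Mif4gd. Mrpl51, which has no bacterial counterpart, was at the bottom of the vehicle range (vehicle peak chr6:125141629-125142086, FGF19 peak chr6:125141564-125142112), with a pileup of 23 and a fold enrichment of 2.50, and reached 28 and 4.52 after FGF19. The summits of these Mrpl51 peaks were 264 bp apart. At Mrpl2, Mrpl33 and Mrpl38 the peaks were not those of a promoter of the gene in both groups. The FGF19 peak assigned to Mrpl2, with a pileup of 17 and a fold enrichment of 3.19, had its summit 100 bp from the start of the neighbouring Cul7, while the vehicle peak of Mrpl2 lay in an intron, 232 bp from the start, with a pileup of 27 and a fold enrichment of 3.34. The peaks of Mrpl33 were inside its long annotated body at the start of Bre, and those of Mrpl38 were in the neighbouring Trim65. At the Bre start the pileup was 28 with vehicle and 33 after FGF19 and the fold enrichment 3.02 and 3.92. In Trim65 the pileup was 19 and 22 and the fold enrichment 2.97 and 4.07.

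**Figure D2:**
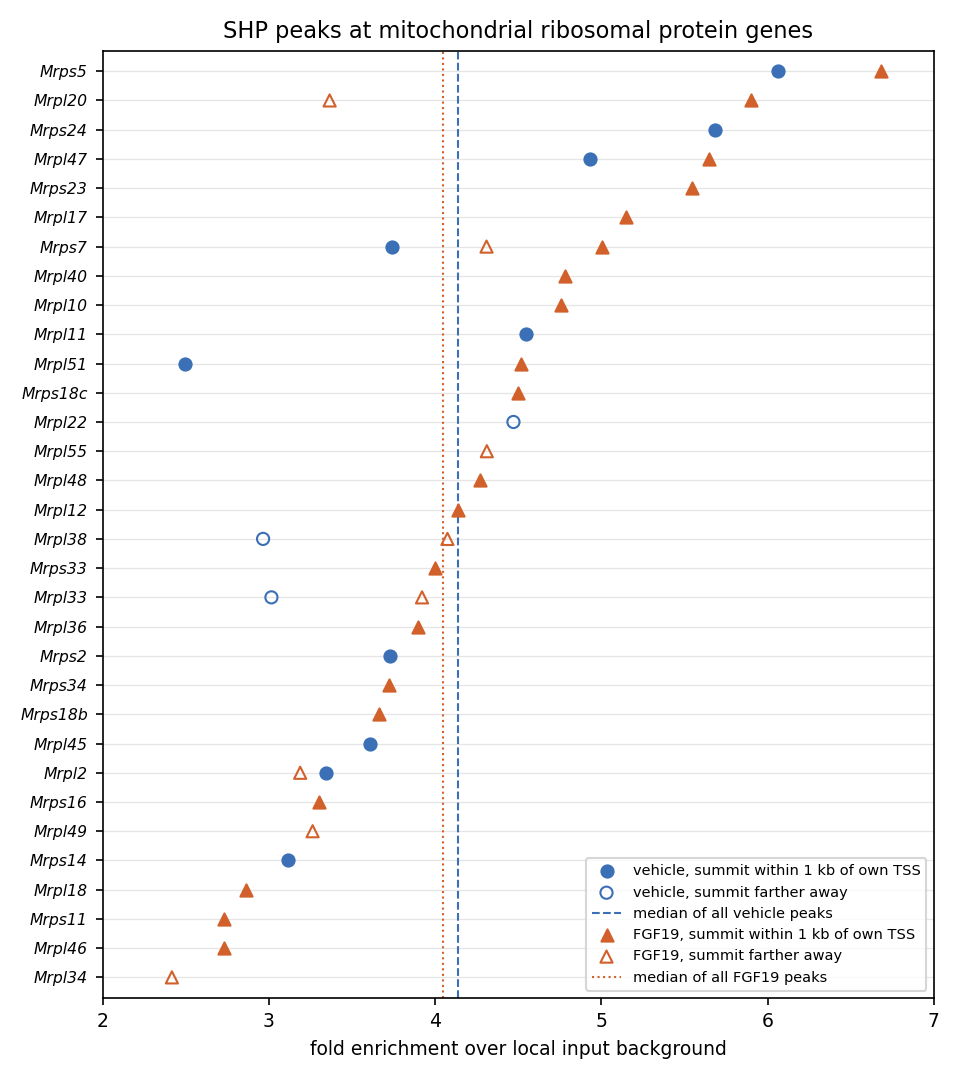
Fold enrichment over local input background (x axis) of every SHP peak within 5 kb of a mitochondrial ribosomal protein gene (y axis, 32 genes), vehicle as circles and FGF19 as triangles, filled when the summit was within 1 kb of a start of the gene; lines mark the medians of all peaks. Vehicle values run from 2.50 to 6.06 and FGF19 values from 2.42 to 6.68, and Mrps5 holds the highest value of both.

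The lists shared 678 regions, of which 6 belonged to the set. Their values were compared between the lists, each at the summit of its own list, and these summits were 21 to 264 bp apart. The regions assigned to Mrpl33 and Mrpl38 lay at Bre and Trim65 and not at a promoter of a member. Fold enrichment was higher after FGF19 at all 6, whereas 48.5% of the 678 regions were higher. The ratios of FGF19 to vehicle on the log2 scale were 0.14 at Mrps5, 0.19 at Mrpl47, 0.38 at Mrpl33, 0.42 at Mrps7, 0.46 at Mrpl38 and 0.86 at Mrpl51. Their median was 0.40, against -0.02 over all shared regions, whose quartiles were -0.36 and 0.32. Pileup divided by the tags kept in each library was higher after FGF19 at 6 of 6 regions, with a median log2 ratio of 0.43, and at 73.3% of all shared regions, with a median of 0.20. Tag extension was longer and depth lower in the FGF19 library, and the part of either in these ratios was not tested.

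The input background enters these ratios after the peak caller scaled it to the SHP library, by 0.957 with vehicle and 0.774 after FGF19. The scaled background implied by pileup and fold enrichment was 8.62 tags with vehicle and 5.42 after FGF19 at Mrpl51, 8.62 and 6.19 at Mrps7, 5.74 and 4.64 at Mrpl38, 8.62 and 7.67 at Mrpl33, 4.61 and 4.24 at Mrps5, and 6.70 and 6.97 at Mrpl47. Before scaling it was 9 and 7 input tags at Mrpl51 and 9 and 8 at Mrps7, 6 in both at Mrpl38, and higher after FGF19 at Mrpl33 (9 and 9.91), Mrps5 (4.81 and 5.48) and Mrpl47 (7 and 9). The value before scaling was lower after FGF19 at Mrpl51 and Mrps7 only. The inputs differed in size, with 16164473 tags kept with vehicle and 17367587 with FGF19, so values before scaling are not on the same footing. The part of input size in them was not tested.

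**Figure D3:**
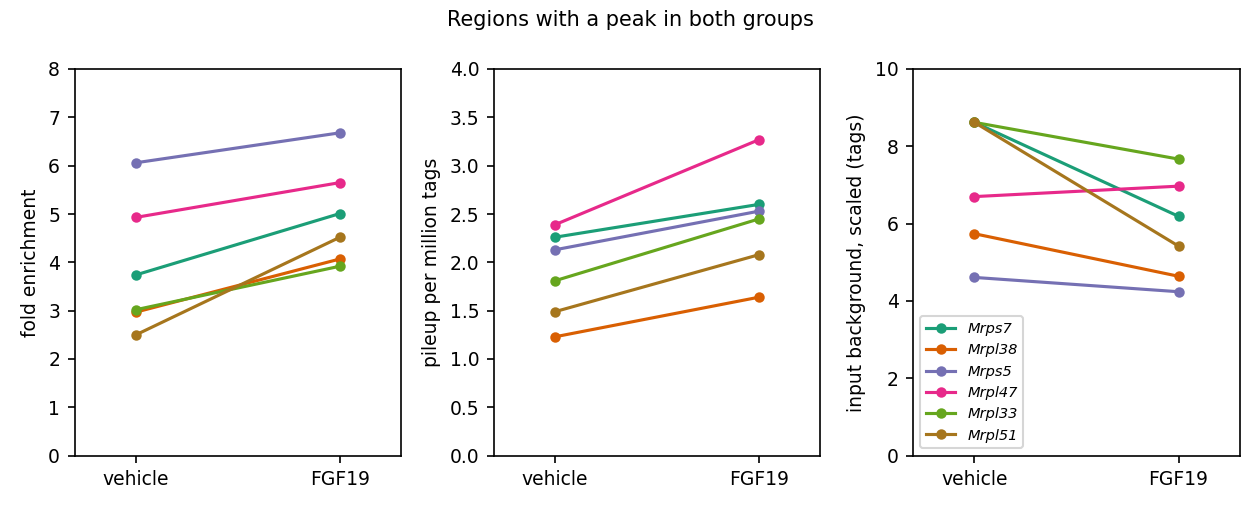
The 6 mitochondrial ribosomal protein regions with a peak in both lists, each a line from vehicle to FGF19, for fold enrichment (left), pileup scaled to the tags kept (middle) and the scaled input background implied by the authors' values (right, in tags). The first 2 measures are higher after FGF19 in all 6, and the scaled background is lower in 5, with Mrpl47 as the exception.

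Peaks only with vehicle lay at 6 genes. Mrps24 had a pileup of 21 and a fold enrichment of 5.68, Mrpl11, of the stalk base of the large subunit, 34 and 4.54, and Mrpl22, whose bacterial counterpart lines the exit tunnel, 18 and 4.47. The peak of Mrpl22 was 3303 bp from its body, in a coding exon at the start of Gemin5. Mrps2 had 17 and 3.73, Mrpl45, which ties the ribosome to the inner mitochondrial membrane, 40 and 3.61, and Mrps14 23 and 3.12. At 5 of these 6 genes the summit was within 1 kb of the gene's own start, and none of the 6 shares its promoter with an opposite gene.

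Peaks only after FGF19 lay at 19 genes. The highest fold enrichments were 5.90 at Mrpl20, 5.54 at Mrps23, 5.15 at Mrpl17, 4.78 at Mrpl40 and 4.76 at Mrpl10, with pileups of 18, 26, 40, 17 and 22. Mrpl20, Mrpl17 and Mrpl10 have bacterial counterparts, and Mrps23 and Mrpl40 do not. A second peak was assigned to Mrpl20 at 3.37, 182 bp from the Ccnl2 start. Mrps18c and Mrps18b, 2 relatives of the same bacterial protein, had fold enrichments of 4.50 and 3.67 and pileups of 28 and 33.

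In the middle of the range were Mrpl55 at 4.31, Mrpl48 at 4.27, Mrpl12 at 4.14, Mrps33 at 4.00, Mrpl36 at 3.89 and Mrps34 at 3.72. Mrpl12 is known for binding the mitochondrial RNA polymerase as well as the ribosome, and its summit lay in an intron, 175 bp upstream of a start, with a pileup of 24. The Mrpl55 peak was 2263 bp from the gene, in a coding exon of 2310033P09Rik. These 6 had pileups between 17 and 30.

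Among genes with an FGF19 peak only, the lowest fold enrichments were 3.30 at Mrps16, mutated in a human mitochondrial disease, 3.26 at Mrpl49, 2.86 at Mrpl18, 2.73 at the promoter shared by Mrpl46 and Mrps11, and 2.42 at Mrpl34. Mrps16 had a high pileup, 33, over a scaled input background of 9.29, the highest of the 27 FGF19 peaks. The Mrpl49 and Mrpl34 summits lay 0 bp from the start of Znhit2-ps and 9 bp from that of Dda1, more than 3 kb from the members. The single peak of Mrpl46 and Mrps11, with a pileup of 25, is counted once among peaks and for both genes.

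The peaks of the set had a median fold enrichment of 3.73 in the vehicle list, with quartiles of 3.12 and 4.54, and of 4.14 in the FGF19 list, with quartiles of 3.52 and 4.77. With vehicle 5 of 13 peaks were above the median of the list, and after FGF19 15 of 27. Kept to summits within 1 kb of a member start, the medians were 3.74 with vehicle and 4.50 after FGF19, while the promoter peaks of all genes had a median of 3.97 in both lists. The median of the set was below that of its list with vehicle and above it after FGF19. The median pileup was 27 with vehicle and 24 after FGF19, and the median scaled background was 6.70 and 5.42 tags, against 4.84 and 5.25 over the whole lists. The median -log10 q-value was 4.51 with vehicle (whole list 5.10) and 5.62 after FGF19 (whole list 5.08). The weakest peaks by this measure were those of Mrpl51 with vehicle and Mrpl34 after FGF19, the latter at 1.43, and the strongest were Mrps5 at 13.1 and Mrpl47 at 16.1.

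Summits clustered at gene starts. With vehicle 10 of 13 (76.9%, interval 49.7 to 91.8) were within 1 kb of a start of the member, and after FGF19 19 of 27 (70.4%, interval 51.5 to 84.1). Over all peaks within 5 kb of any protein-coding gene the shares were 75% and 84.2%. There the start of any protein-coding gene counted, a wider rule than for the members, so the shares are not directly comparable. The median distance of these promoter summits was 91 bp with vehicle and 85 bp after FGF19, and the farthest were at 314 bp, at Mrps14, and 454 bp, at Mrpl40. Upstream summits numbered 4 of 10 with vehicle and 13 of 19 after FGF19. The other 3 vehicle and 8 FGF19 summits were all within 1 kb of the start of another protein-coding gene. Counting genes with a summit within 1 kb of their own start, 10 had one with vehicle (13.0%, background 5.53%) and 20 after FGF19 (26.0%, background 12.5%). By this narrower count 26 genes were bound in either list (background 15.4%), 4 in both (background 2.59%), 6 only with vehicle (background 2.94%) and 16 only after FGF19 (background 9.88%).

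**Figure D4:**
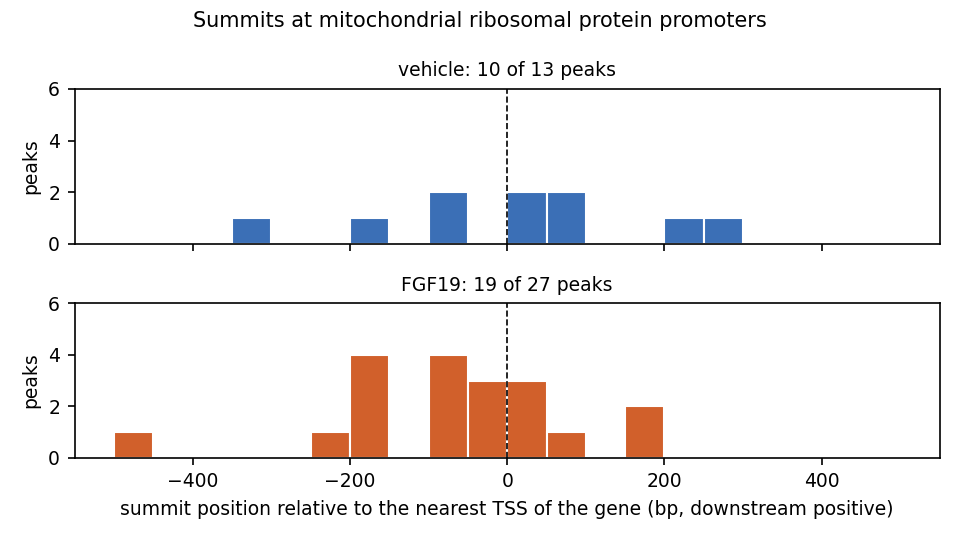
Position of SHP summits relative to the nearest start of the mitochondrial ribosomal protein gene (x axis, bp, in bins of 50 bp) for the 10 vehicle and 19 FGF19 peaks within 1 kb of one; the y axis counts peaks and the dashed line is the start. After FGF19 13 of the 19 summits lie upstream.

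At the edge of the assignment, the farthest peaks kept were 3303 bp from Mrpl22 with vehicle (fold enrichment 4.47) and 4343 bp from Mrps7 after FGF19 (4.31). The nearest peaks left out were 5980 bp from Mrps17 (3.23) and 5507 bp from Mrpl53 (3.51).

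A promoter shared with a gene on the opposite strand was common in the set. An opposite protein-coding start within 1 kb was annotated for 28 of the 77 genes (36.4%) and for 12.0% of all genes, and for 17.3% of the cytosolic ribosomal and 33.7% of the oxidative phosphorylation genes. After FGF19 14 of the 28 had a peak (50%, interval 32.6 to 67.4), against 32.2% of all genes with such a partner. Among all genes with both a partner and a CpG-rich promoter the share was 35.3%, inside that interval. With summits within 1 kb of the gene's own start, 13 of the 28 had one (46.4%, interval 29.5 to 64.2), against 27.4% of all genes with a partner. The 49 without a partner had 12 (24.5%, interval 14.6 to 38.1), against 14.1% of all genes without one. With vehicle the counts by the 5 kb rule were 4 of 28 (14.3%) and 9 of 49 (18.4%), against 16.5% and 6.76%. By the 1 kb rule they were 4 of 28 (14.3%) and 6 of 49 (12.2%), against 13.7% and 4.41%. By the 5 kb rule the FGF19 share was thus higher in members with a partner and the vehicle share was not, but the intervals overlapped. By the 1 kb rule the FGF19 share was also higher with a partner, and its intervals did not overlap. The 13 genes behind that share include Mrpl46 and Mrps11, which have 1 peak between them. The vehicle shares by the 1 kb rule were close. Over all genes both shares were higher with a partner by either rule.

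The 4 members with a partner and a vehicle peak, Mrps5, Mrpl47, Mrpl51 and Mrps7, also had an FGF19 peak. Of the 19 genes with an FGF19 peak only, 10 had a partner (52.6%, interval 31.7 to 72.7), and of the 6 with a vehicle peak only, 0 had one (interval up to 39.0%). The 10 include Mrpl46 and Mrps11, which share 1 peak though the interval treats them as independent. They also include Mrpl49, whose peak lay at Znhit2-ps and not at its shared promoter. Over all genes, 606 of 2675 with an FGF19 peak only (22.7%) and 186 of 810 with a vehicle peak only had a partner. Partners of bound members included Tcp1 of the cytosolic chaperonin beside Mrpl18, the histone chaperone gene Hira beside Mrpl40, the condensin gene Ncapd2 beside Mrpl51, the helicase gene Helq beside Mrps18c and Rab6 of Golgi traffic beside Mrpl48. The starts of Mrpl46 and Mrps11 are 53 bp apart, the only pair in which both genes are members.

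A peak at such a promoter cannot be given to 1 of its genes. Of the 19 FGF19 promoter summits, 12 were nearest to the start of a member and 7 to that of its opposite partner, and of the 10 vehicle summits, 8 and 2. In all 9 cases in which another start was nearer, it was the partner's. Members with a partner but no peak included Mrpl43, opposite the mitochondrial DNA helicase gene Peo1, and Mrps12, opposite Sars2, whose enzyme charges mitochondrial serine tRNA.

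Sequence matches were counted on either strand within 100 bp of the gene start, again its most upstream annotated end. At Mrps24, Mrpl46 and Mrpl48, for example, the peak lay at another start of the gene, outside this window. The YY1 core near the Mrps24 summit is therefore not counted here. The letters were AANATGGC for the YY1 core (GCCATNTT on the other strand), CCGGAAG for ETS factors (CTTCCGG), CCCCGCCCC for SP1 (GGGGCGGGG), ATTGGC for NF-Y (GCCAAT), and the palindromic consensus sequences of NRF1 and ZBTB33. A window counted once for each sequence, and matches to different sequences may overlap. The YY1 core was found at 18 of 77 genes (23.4%) against 5.72% of all promoters of the same length and 8.17% of CpG-rich promoters. The ETS sequence was found at 30 (39.0%) against 9.39% and 16.6%. SP1 was found at 10 (13.0%, all promoters 11.9%), NF-Y at 7 (9.09%, all 12.0%), NRF1 at 2 (2.60%, all 1.02%) and ZBTB33 at 0 (all 0.528%). In CpG-rich promoters of all genes these shares were 21.4% for SP1, 14.7% for NF-Y, 2.03% for NRF1 and 1.05% for ZBTB33. The SP1 and NF-Y shares of the set were below those values.

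The members were then divided into those with and without a peak. The YY1 core was in 25% of the 32 genes with a peak and 22.2% of the 45 without, and the ETS sequence in 37.5% and 40%. SP1 was in 15.6% and 11.1%, NF-Y in 3.12% and 13.3%, and NRF1 in 0% and 4.44%. The intervals overlapped in each pair, and no difference was tested. The higher share of the YY1 core and ETS sequences was seen in members with a peak and in those without one.

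**Figure D5:**
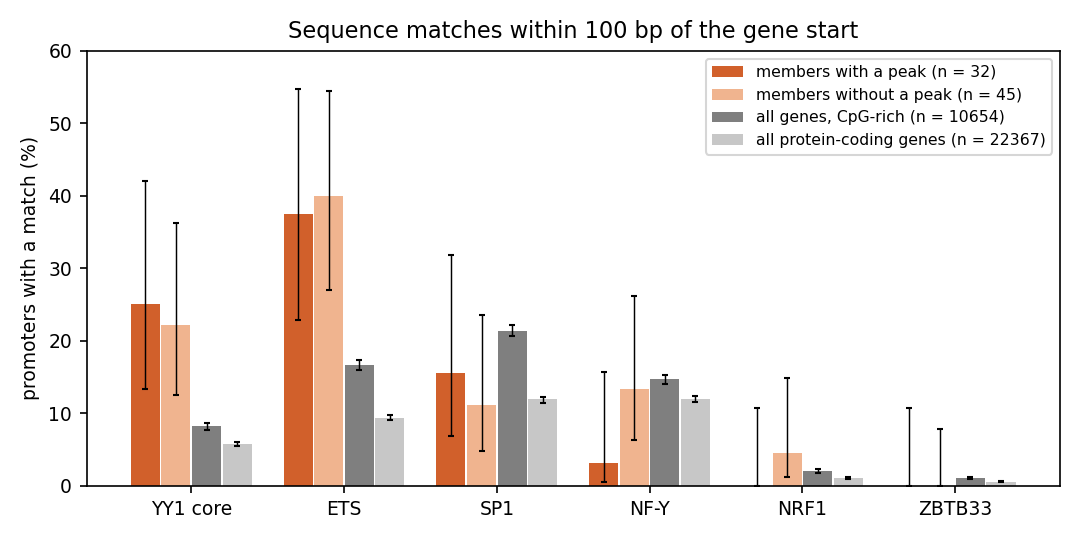
Percentage of promoters (100 bp on either side of the gene start) with an exact match to 6 sequences, for members with a peak in either list, members without one, CpG-rich promoters of all genes and all promoters; error bars are 95% Wilson intervals. The YY1 core and ETS bars of the members, with and without a peak, stand above those of all genes.

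Around the summits themselves, within 100 bp, the YY1 core was found at 2 of 13 vehicle peaks of the set (15.4%, whole list 9.75%) and 3 of 27 FGF19 peaks (11.1%, whole list 7.56%). The sites are shown with the core in capitals and the strand on which it reads. They lie at chr3:32635752-32635775 (plus) near the vehicle summit and chr3:32635904-32635927 (plus) near the FGF19 summit of Mrpl47. The others lie at chr11:5607653-5607676 (minus) at Mrps24, chr7:85927902-85927925 (minus) at Mrpl46 and Mrps11, and chr11:115465169-115465192 (minus) at Mrps7.
Mrpl47 vehicle: ccttactaAACATGGCcgctccca
Mrpl47 FGF19: cctcactcAATATGGCctcctcta
Mrps24 vehicle: gccggcccAAGATGGCgtggtccg
Mrpl46 and Mrps11 FGF19: aagacagaAAGATGGCggcgcccg
Mrps7 FGF19: gcggctgcAATATGGCggaggcgg
The 2 Mrpl47 sites are different sites in the same promoter, and both lie inside the vehicle peak and inside the FGF19 peak. Each is listed only for the summit within 100 bp of it. The Mrps7 site also lies inside the vehicle peak of Mrps7, but more than 100 bp from its summit.

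The ETS sequence was near 1 of 13 vehicle summits (7.69%, whole list 7.82%) and 8 of 27 FGF19 summits (29.6%, interval 15.9 to 48.5, whole list 9.72%). Of the 8, 5 were at a promoter of a member and are shown with the match in capitals, at chr17:13109183-13109205 (minus), chr16:18877313-18877335 (minus), chr5:101227614-101227636 (minus), chr11:88017897-88017919 (minus) and chr6:39760883-39760905 (plus).
Mrpl18: tgaaaacgCCGGAAGtagggggc
Mrpl40: gggcaacgCCGGAAGtcacggcg
Mrps18c: ttcccgggCCGGAAGtcacgtga
Mrps23: ggctgttaCCGGAAGcggaagcg
Mrps33: gcgcgtccCCGGAAGgcccgccc
These 5 genes were bound after FGF19 only, and the other 3 summits were those at Ccnl2, Bre and Znhit2-ps, assigned to Mrpl20, Mrpl33 and Mrpl49. Among the 5, the Mrpl40 summit was 454 bp from its own start and 49 bp from that of its partner Hira. The Mrps18c summit was 71 bp from its own start and 21 bp from that of its partner Helq. Any of the 6 sequences was near 4 of 13 vehicle summits (30.8%, whole list 37.8%) and 14 of 27 FGF19 summits (51.9%, whole list 37.4%).

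The rest of the mitochondrial gene expression machinery was taken from a list of 38 symbols, which stand for 39 annotated genes. Counts are of symbols. With vehicle 3 of the 38 had a peak and after FGF19 7, with Tufm, the mitochondrial elongation factor that brings tRNA to the ribosome, in both. The Tufm peak had a fold enrichment of 3.55 with vehicle and 3.70 after FGF19 and pileups of 23 and 17, with summits 118 and 17 bp upstream of its start. After FGF19, Ict1, a peptidyl-tRNA hydrolase that is part of the large subunit, had fold enrichments of 4.96 and 3.66 at its 2 peaks, Tfb1m, the methyltransferase of the small ribosomal RNA, 3.63, Polg, the mitochondrial DNA polymerase, 2.61, and Gadd45gip1, a large subunit protein, 3.26. The Gadd45gip1 summit was 856 bp from its start and nearer to that of Dand5. With vehicle, the peak at 2610024G14Rik, the symbol used for the GTPase gene Noa1, had a fold enrichment of 3.95 and lay nearer to the start of Polr2b. The peaks assigned to Chchd1 (2.89) and Mtrf1 (3.43) after FGF19 and to Mtif2 (5.09) with vehicle were also nearest to the starts of other genes. Over the 39 annotated genes the shares were 7.69% and 17.9%, beside backgrounds of 7.93% and 16.3%.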

How the data were processed

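Chromatin from mouse liver was precipitated with SHP antibody and sequenced, with input, in 1 vehicle and 1 FGF19 library pooled from 3 mice each. The authors aligned reads to mm9 with Bowtie 1.0.0, allowing up to 2 mismatches, and called peaks against input with MACS2 2.0.10.20130501 at a q-value cutoff of 0.05. Per the file headers, the deposited signal is the summit pileup, in extended tags, with input scaled down to the SHP library. The deposited fold enrichment is a ratio of summit pileup to local input. The deposited -log10 p-value and -log10 q-value were left as called. The reads were not analysed here.

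Peaks within 5 kb of member gene bodies in GENCODE M1, which uses the same build, were taken by a script, and distances were measured from summits to the nearest start of any transcript. The scaled input background was computed as (pileup + 1) / fold enrichment - 1. Peaks sharing at least 1 bp were called common, with the strongest peak per list used for ratios. Every member with a peak is named, as is every gene with a peak from a list of other mitochondrial gene expression genes. The subunit and class of each protein come from a hand-written table. The members and lists were chosen with earlier results of these data known. With 1 library a group no test was made. On simulated data the scripts recovered what was planted in 8 of 8 checks. Motif counts leave out peaks on mitochondrial DNA (3148 of 3155 FGF19 peaks were used). Python 3.11.15, numpy 2.4.6, pandas 2.3.3, pysam 0.24.0, samtools 1.23.1 and matplotlib 3.10.9 were used. Thresholds, windows, the unequal list lengths and the measure of binding were varied.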

Additional observations from a re-analysis of the deposited data

How the results depend on the processing

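No paired analysis was possible because each group is 1 pooled library. Of 45 alternatives, 32 left the value about the same and 13 moved it. None was labelled a reversal, but most of these values are counts, percentages or medians, which have no direction to reverse. The restriction to CpG-rich genes is among the 32, because the shares of the set stayed at 16.7% with vehicle and 34.8% after FGF19. The background did change, from 7.93% to 12.7% with vehicle and from 16.3% to 27.0% after FGF19. With a fold enrichment of at least 4, the member genes with a peak numbered 5 with vehicle, 15 after FGF19 and 2 in both. Counting only peaks whose nearest protein-coding start was the member's own gave 8, 12 and 2. With summits within 1 kb of the own start, 4 genes were in both lists, and with summits at most 100 bp apart, 3. With the FGF19 list shortened to as many peaks as the vehicle list, 14 genes had an FGF19 peak, against 13 with vehicle. Kept to peaks within 1 kb of the gene body, 86.4% of the FGF19 peaks had a summit near the start. A sequence match lay within 50 bp of 2 vehicle and 9 FGF19 summits, and within 150 bp of 7 vehicle summits. Each of the narrower rules leaves peaks out by construction. With 1 library a group, the effect of depth on the counts was not tested.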
